A study of Homo sapiens with 6 samples.

Results

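The 10 genes described here encode oxidases able to release superoxide or hydrogen peroxide, or a subunit they need: NOX4, NOX5, CYBB, CYBA, MAOA, MAOB, XDH, AOX1, PTGS1 and PTGS2. They were taken by gene symbol and matched 10 of the 60612 rows of the deposited gene table. All 6 libraries came from ARPE-19, a human cell line grown from retinal pigment epithelium that arose spontaneously in culture. Transfection was with miR-204-5p (3 libraries), which pigment epithelium normally makes in quantity, or with a control labelled miR-NC (3 libraries). The labels give no dose, time after transfection, culture conditions or sequence of the control. The stated question was which transcripts miR-204-5p may target, and the title of the study names oxidative stress in myopia.

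Most of these enzymes can pass electrons from a substrate to oxygen. NADPH oxidases do this across a membrane as their main task: NOX4 and CYBB (also called NOX2) need the small membrane subunit encoded by CYBA (p22phox), whereas NOX5 is switched on by calcium and works without it. The monoamine oxidases MAOA and MAOB sit on the outer mitochondrial membrane and give off hydrogen peroxide while breaking down amines such as serotonin and dopamine. Xanthine dehydrogenase (XDH), which makes uric acid, and aldehyde oxidase (AOX1) carry a molybdenum cofactor, and the cyclooxygenases PTGS1 and PTGS2 start prostaglandin synthesis by adding oxygen to arachidonic acid, followed by a peroxidase reaction on the same enzyme.

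A microRNA pairs with target transcripts mainly through its seed, bases 2 to 8, so the mature miR-204-5p is shown with the seed in capitals, followed by the matching sites found in the longest annotated 3' UTR of these genes. The miRNA sequence is from RefSeq (GRCh38.p14, chromosome 9, 70810031 to 70810052, minus strand), and the sites are from GENCODE release 29 transcripts on GRCh38, read 5′ to 3′ on the transcript strand with up to 10 bases on each side.
miR-204-5p: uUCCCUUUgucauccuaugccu
NOX4 7mer-m8: tataaattatAAAGGGAtatatatata
NOX5 8mer: gcagttaatcAAAGGGAAaggggctggg
CYBB 8mer: tttagaatcaAAAGGGAAaggatcaaaa
CYBB 7mer-m8: aaaaaaggcaAAAGGGAgagagagggg
XDH 7mer-A1: taaagagaacAAGGGAAgaacaaacat
PTGS1 8mer: aaagttttgcAAAGGGAAacaggctaaa

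Searched for were AAAGGGAA (called 8mer), AAAGGGA (7mer-m8), AAGGGAA (7mer-A1) and the shorter AAGGGA (6mer), on the transcript strand only, each site being counted once in its longest class. Of the 10 genes, 3 held an 8mer (NOX5, CYBB and PTGS1), and 5 held a site of any class. Among all 19121 protein-coding genes with a 3' UTR, 8.01% held an 8mer and 36.9% a site of any class. These shares take no account of 3' UTR length. The 3' UTRs searched had 1637 bases (XDH) to 6047 bases (NOX5) in the genes with a site and 816 (AOX1) to 2562 (PTGS2) in those without. Whether the longest 3' UTR is the one expressed here was not tested. NOX5 and CYBB also held 6mers, 2 in NOX5 and 1 in CYBB. No match was found in the windows searched for CYBA, AOX1, MAOA, MAOB and PTGS2. The NOX4 site lies at chromosome 11, 89325968 to 89325974 (minus strand), that of XDH at chromosome 2, 31334528 to 31334534 (minus strand), and the 8mer of PTGS1 at chromosome 9, 122395249 to 122395256 (plus strand). The 8mer of NOX5 lies at chromosome 15, 69059338 to 69059345, and those of CYBB at chromosome X, 37811201 to 37811208 for the 8mer and 37812460 to 37812466 for the 7mer-m8, all on the plus strand. The 3 genes with an 8mer were among the 4 lowest of the 10 in level, and none of them passed the filter on low values described below.

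Levels are given as FPKM, fragment counts scaled to transcript length and to library size. Genes of different length can be compared only roughly, since the libraries differed in how long transcripts stood against short ones, as given below. CYBA and AOX1 made up nearly all of the signal. The 2 genes together took from 91.5% to 96.9% of the summed FPKM of the 10 genes in each library. CYBA averaged 35.6 ± 13.8 FPKM (SD, n = 6 libraries) and AOX1 12.8 ± 7.24 FPKM. XDH followed at 1.04 ± 0.17 FPKM, MAOA at 0.89 ± 0.53 FPKM, MAOB at 0.39 ± 0.24 FPKM and NOX4 at 0.30 ± 0.10 FPKM. CYBB averaged 0.067 ± 0.038 FPKM, PTGS1 0.036 ± 0.023 FPKM and NOX5 0.020 ± 0.012 FPKM, and PTGS2 was listed at 0 in 5 of 6 libraries. Of the genes tested in the series, 91.9% had a lower mean than CYBA and 79.9% a lower mean than AOX1, but only 18.7% a lower mean than XDH.

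Most neighbours in this order were not separated by their spread. CYBA was above AOX1 in 6 of 6 libraries although their ranges overlapped (22.0 to 52.7 against 3.99 to 22.2 FPKM). AOX1 and XDH did not overlap (3.99 to 22.2 against 0.85 to 1.25 FPKM), nor did NOX4 and CYBB (0.16 to 0.45 against 0.031 to 0.14 FPKM). XDH was above MAOA in 4 of 6 libraries and MAOB above NOX4 in 4 of 6, so neither pair has a settled order.

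**Figure D1:**
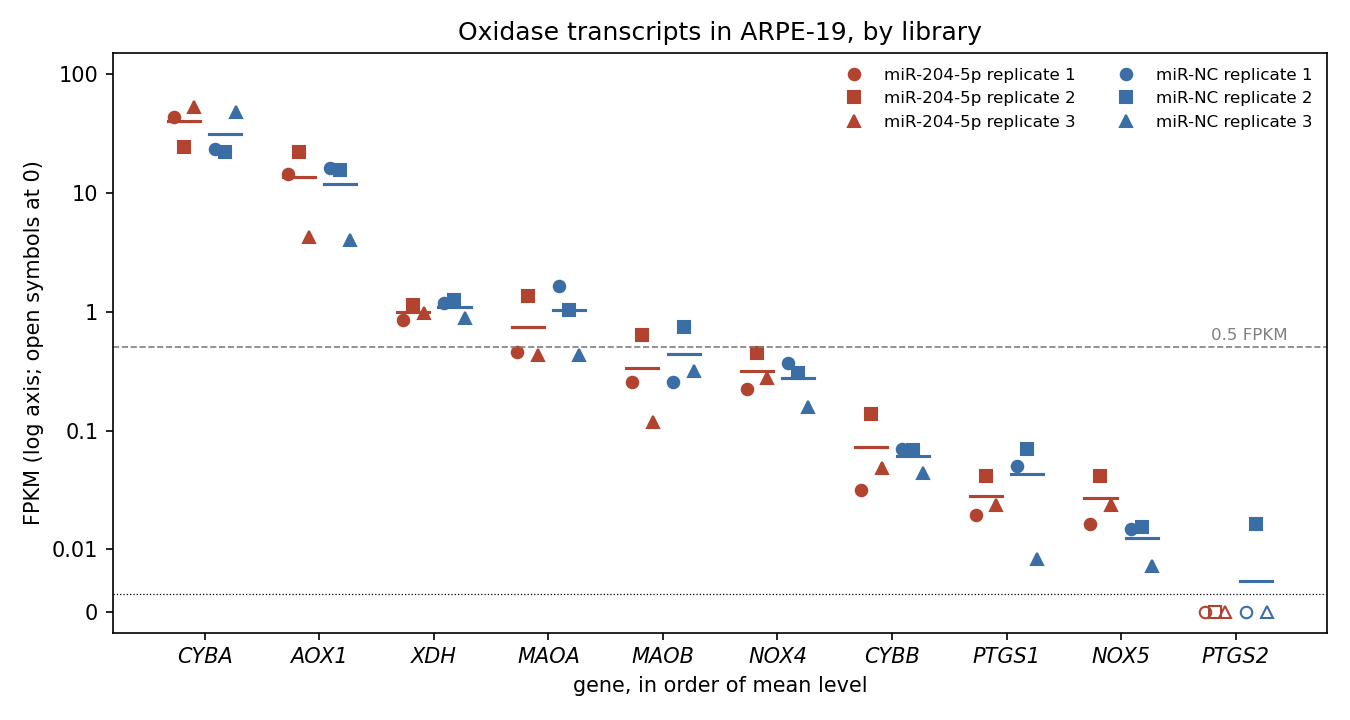
FPKM of the 10 oxidase genes in each of the 6 libraries on a log axis (symbols, 1 per library; bars, group means; open symbols, 0; dashed line, 0.5 FPKM). CYBA and AOX1 lie well above the rest, and red (miR-204-5p) and blue (miR-NC) symbols overlap for each gene but NOX5, whose values are all under 0.05 FPKM; PTGS2 is at 0 in 5 of 6 libraries.

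Genes were tested where FPKM reached 0.5 in at least 3 libraries, which 4 of the 10 did: CYBA, AOX1, XDH and MAOA. The other 6 are given as values. None of the 4 tested was called as changed with miR-204-5p, meaning an adjusted p under 0.05. Limits on the size of each change are given below, and a missing call does not show that a gene was unchanged. Across the series 0 of 13151 genes tested (0%) had an adjusted p under 0.05 (limma with Benjamini-Hochberg adjustment), while 273 (2.08%) had an unadjusted p under 0.05, none of them an oxidase of this set. For the 4 genes tested the adjusted p was 1.00. In the authors' deposited table none of the 10 genes was marked as changed and each had a q of 1. In 782 of the 13151 genes tested (5.95%) the groups did not overlap, and in each of the 4 oxidase genes tested they did.

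The leading difference between the libraries did not follow the groups. On the leading principal component of the 13151 genes (54.1% of the variance), the libraries numbered 3 of miR-204-5p and miR-NC lay at -41.1 and -32.4 and replicate 1 of miR-204-5p at -15.3, while the remaining libraries lay between 26.1 and 33.1. The same 3 libraries were low in long transcripts. Among the 3270 genes with the longest transcripts (4867 bases or more) their median log2 value, centred on each gene's mean, was -0.20, -0.21 and -0.080, against 0.17 to 0.19 in the other libraries. Among the 3268 genes with the shortest (up to 1800 bases) it was 0.097, 0.062 and 0.11, against -0.12 to -0.063. Estimated depth lay between 19000000 and 23300000 read pairs. Replicate 3 of miR-204-5p also held 361 FPKM of RN7SK, an RNA without a poly(A) tail, against 5.24 to 14.5 FPKM elsewhere.

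As a check of the label, the keratins KRT8 and KRT18 stood above 100 FPKM in every library and 7 of 13 pigment epithelium markers reached 0.5 FPKM in at least 3 libraries, among them RLBP1, BEST1, MITF and OTX2. RPE65, the isomerase of the visual cycle, stayed at or under 0.029 FPKM, and TYR and TTR were listed at 0 in all libraries. PMEL, TYRP1 and DCT reached at most 0.62, 0.10 and 0.018 FPKM. The summed marker level ran from 342 to 433 FPKM with miR-204-5p and from 355 to 399 FPKM with miR-NC. Most of that sum came from KRT18 (194 to 249 FPKM) and KRT8 (124 to 164 FPKM), so it says little about the other markers.

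Among the NADPH oxidases, the catalytic subunits were scarce and their partner CYBA was abundant. CYBA stood at 43.2, 24.3 and 52.7 FPKM in replicates 1, 2 and 3 of miR-204-5p and at 23.4, 22.0 and 47.8 FPKM in those of miR-NC. The groups overlapped: 3 libraries lay above 40 FPKM and 3 below 25 FPKM, and each set held libraries of both groups. The means were 40.1 ± 14.4 and 31.0 ± 14.5 FPKM (SD, n = 3 each). The log2 fold change of FPKM + 1, miR-204-5p minus miR-NC, was 0.38 (standard error 0.39), with 95% limits from -0.54 to 1.29. Leaving out miR-204-5p replicate 3 gave 0.15, and leaving out miR-NC replicate 3 gave 0.73. The libraries high in CYBA, whose longest annotated transcript has 1415 bases, were the 3 that were low in long transcripts, and the part of transcript length in its values was not tested.

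NOX4, the NADPH oxidase that makes hydrogen peroxide without needing an activating signal, stood at 0.22, 0.45 and 0.28 FPKM with miR-204-5p and 0.37, 0.31 and 0.16 FPKM with miR-NC. The values of the groups interleaved. Mean FPKM was 0.32 ± 0.12 and 0.28 ± 0.11 (SD, n = 3 each), and the difference of mean log2(FPKM + 1) was 0.042 (exact permutation test, two-sided, p = 0.8, where 0.1 is the smallest p that 3 against 3 libraries allow). It turned to -0.028 when miR-204-5p replicate 2 was left out and to -0.027 when miR-NC replicate 3 was. If all reads came from the longest annotated transcript, these values would correspond to roughly 13.8 to 39.2 read pairs a library. CYBA exceeded NOX4 between 54.4 and 302 times in FPKM, library by library. The ratio was 192 and 190 in replicates 1 and 3 of miR-204-5p and 302 in replicate 3 of miR-NC. Those are the libraries low in long transcripts, and in the others it was 54.4 to 71.6. The longest NOX4 transcript has 4184 bases, and the part of length was not tested.

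CYBB, the catalytic subunit of the phagocyte oxidase, stood at 0.031, 0.14 and 0.049 FPKM with miR-204-5p and 0.070, 0.069 and 0.044 FPKM with miR-NC. Replicate 2 of miR-204-5p was the highest library, at roughly 12.6 read pairs, and the other 5 held roughly 2.94 to 6.90. The difference of mean log2(FPKM + 1) was 0.015 (exact permutation test, two-sided, p = 0.9), and without that library it turned to -0.028 (exact permutation test, two-sided, p = 0.3).

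Some of the marker genes of myeloid cells, which normally carry CYBB, were also highest in that library. Over all 10 markers the summed level was 5.39 FPKM in replicate 2 of miR-204-5p, 2.07 and 2.46 FPKM in replicates 1 and 3, and 1.84 to 2.67 FPKM with miR-NC. LYZ, which encodes lysozyme, stood at 1.21 FPKM in replicate 2 of miR-204-5p, and the calprotectin genes S100A8 and S100A9 at 0.68 and 0.88 FPKM. These 3 genes, SPI1 and AIF1 were listed at 0 in every miR-NC library. Replicate 3 of miR-204-5p held LYZ, S100A9, AIF1 and SPI1 at 0.27, 0.088, 0.042 and 0.026 FPKM, and replicate 1 held LYZ at 0.025 FPKM. CYBB in that replicate 3 was 0.049 FPKM, below the 0.070 and 0.069 FPKM of miR-NC replicates 1 and 2. ITGAM and FCGR3A were also at their highest in replicate 2 of miR-204-5p, at 0.066 and 0.96 FPKM, though FCGR3A reached 0.93 FPKM in miR-NC replicate 3. CD14, CSF1R and PTPRC were not raised there. CD14 was at its lowest of the 6 libraries, 0.078 FPKM against 0.10 to 0.38 FPKM elsewhere. CSF1R stood at 0.92 FPKM within a range of 0.71 to 1.20 FPKM, and PTPRC, the pan-leukocyte marker CD45, at 0.43 FPKM within 0.29 to 0.51 FPKM. The part of such RNA in the CYBB values was not tested. In bulk RNA, fewer cells of a type and less RNA per cell cannot be told apart.

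**Figure D2:**
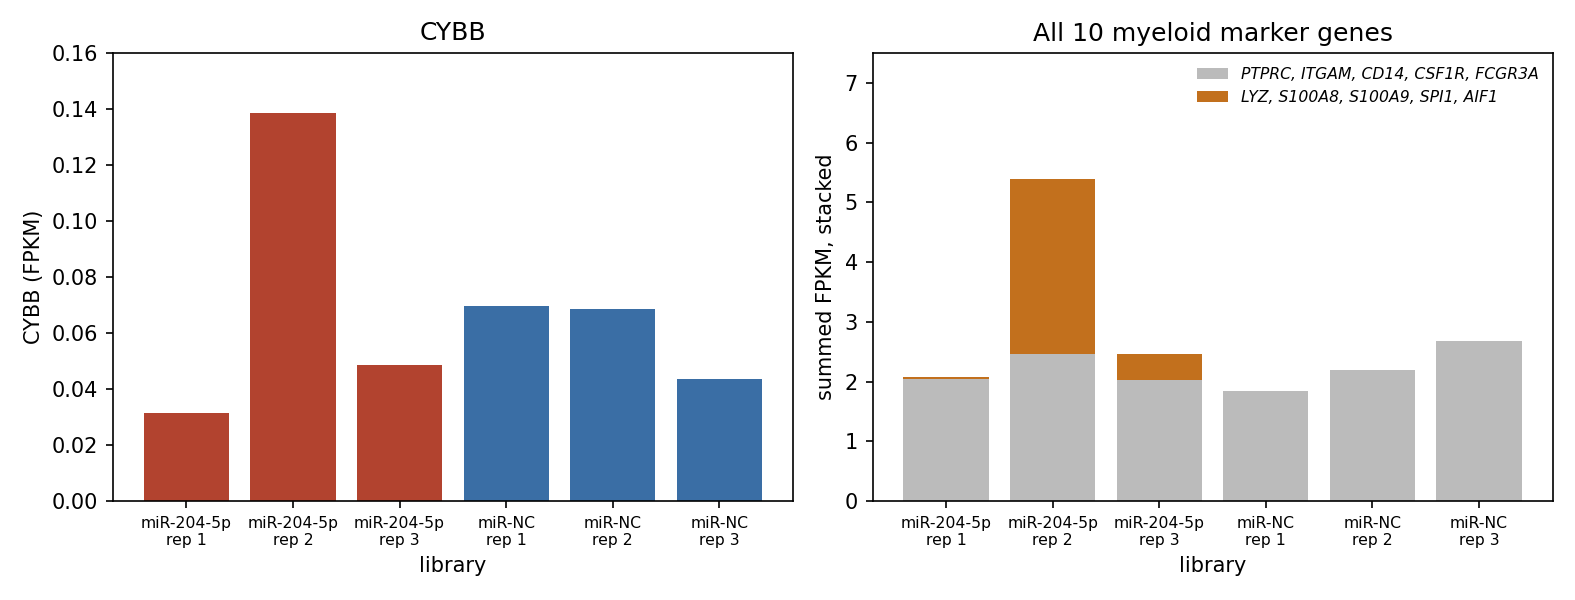
CYBB (left, FPKM, 1 bar per library) and the summed FPKM of the 10 myeloid marker genes (right, stacked, orange for the 5 markers listed at 0 in all miR-NC libraries). Replicate 2 of miR-204-5p is the highest bar in both, at 0.14 FPKM of CYBB and 5.39 FPKM of the markers.

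NOX5 was the 1 gene of the set whose groups did not overlap. It stood at 0.017, 0.041 and 0.024 FPKM with miR-204-5p and 0.015, 0.015 and 0.0073 FPKM with miR-NC. All 3 miR-204-5p values lay above all 3 miR-NC values, though miR-204-5p replicate 1 and miR-NC replicate 2 nearly met. With 3 libraries a group the exact permutation p = 0.1 was the smallest possible (two-sided). Among the 5166 genes that were above 0 in all libraries and below the filter, 4.43% were higher with miR-204-5p without overlap and 8.23% were apart in either direction. The values correspond to roughly 1.3 to 7.41 read pairs a library for the longest transcript of 8592 bases. The gene also overlaps SPESP1, a processed transcript and a transcribed pseudogene on the same strand, and a non-coding gene on the other. How strand was treated in counting is not stated, so even these few reads may not all be its own.

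Partners of the NADPH oxidases were described from a list of 15 genes, of which 5 passed the filter and 0 were called. Their median log2 fold change was 0.21, against -0.016 for all genes tested, and 5 of 5 were positive, against 46.9% of all genes tested. The 5 were also positive after median-of-ratios scaling (median 0.23) and quantile normalization (median 0.19). RAC1, a small GTPase that activates several NADPH oxidases, stood at 142, 135 and 138 FPKM with miR-204-5p and 112, 115 and 105 FPKM with miR-NC. Its groups did not overlap. The log2 fold change was 0.32 (95% limits -0.010 to 0.66). POLDIP2, reported to bind p22phox and raise NOX4 activity, stood at 74.1, 67.3 and 66.2 FPKM against 59.8, 56.7 and 59.0 FPKM, again without overlap. Its log2 fold change was 0.24 (95% limits -0.095 to 0.57). Such a rise without overlap was seen in 3.77% of all genes tested, and for RAC1 and POLDIP2 the adjusted p was 1.00 (limma, Benjamini-Hochberg). CYBC1, a chaperone of the phagocyte oxidase, averaged 6.89 ± 1.6 and 6.30 ± 1.88 FPKM (SD, n = 3 each). Its log2 fold change was 0.12 (limits -0.46 to 0.71), and it turned to -0.032 when miR-204-5p replicate 3 was left out. The 10 partners and relatives below the filter, NOX1, NOX3, both DUOX genes and NCF1 among them, averaged at most 0.17 FPKM.

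The monoamine oxidases were low, and the values of both overlapped between the groups. MAOA stood at 0.46, 1.35 and 0.43 FPKM with miR-204-5p and 1.64, 1.04 and 0.44 FPKM with miR-NC. The 3 low values were in the libraries that were low in long transcripts, and the longest MAOA transcript has 5438 bases; the part of length was not tested. Means were 0.75 ± 0.52 and 1.04 ± 0.60 FPKM (SD, n = 3 each), and the log2 fold change was -0.22 (standard error 0.29, limits -0.90 to 0.46). Leaving out miR-204-5p replicate 2 gave -0.45, and leaving out miR-NC replicate 1 gave -0.0086. With a pseudocount of 0.1 it was -0.43.

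MAOB, which lies next to MAOA on chromosome X in the opposite orientation, stood at 0.25, 0.63 and 0.12 FPKM with miR-204-5p and 0.26, 0.74 and 0.31 FPKM with miR-NC. Replicate 2 was the highest library in each group. The difference of mean log2(FPKM + 1) was -0.11 (exact permutation test, two-sided, p = 0.5), and it turned to 0.0094 when miR-204-5p replicate 3 was left out and to 0.037 when miR-NC replicate 2 was. MAOA was above MAOB in every library, by 1.38 to 6.37 times with a median of 1.97.

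Of 15 other amine oxidases and genes of amine breakdown, 10 passed the filter and 0 were called. There were 5 positive and 5 negative, with a median of -0.026. Among the lysyl oxidases, copper enzymes that cross-link collagen and release hydrogen peroxide, LOXL2, LOXL1 and LOX stood far above the monoamine oxidases, whereas LOXL4 averaged 1.4 FPKM and LOXL3 0.25 FPKM. LOXL2 averaged 65.9 ± 21.5 FPKM with miR-204-5p and 92.7 ± 22.2 FPKM with miR-NC (SD, n = 3 each). LOXL1 averaged 51.0 ± 3.94 and 53.9 ± 8.23 FPKM, and LOX 37.4 ± 14.3 and 52.3 ± 15.3 FPKM. These 3 had overlapping groups, with log2 fold changes of -0.51 (limits -1.16 to 0.15) for LOXL2, -0.072 (limits -0.47 to 0.33) for LOXL1 and -0.50 (limits -1.25 to 0.25) for LOX. Leaving out 1 library moved LOX to between -0.78 (miR-204-5p replicate 2) and -0.27 (miR-204-5p replicate 1; -0.28 for miR-NC replicate 2). For LOXL2 the range was -0.76 (miR-204-5p replicate 2) to -0.33 (miR-NC replicate 2).

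SLC22A3 is a transporter that takes up monoamines into cells. In the fit without a block it was the 1 pathway-list gene with an unadjusted p under 0.05 (limma, adjusted p = 1.00). With the replicate number added as a block it was 1 of several such genes, as given below. It stood at 3.71, 3.21 and 3.12 FPKM with miR-204-5p and 5.77, 4.93 and 4.56 FPKM with miR-NC, without overlap, as did 2.17% of genes tested in this direction. Its log2 fold change was -0.48 (limits -0.88 to -0.087). PAOX, a polyamine oxidase of peroxisomes, stood at 5.26, 4.12 and 4.67 FPKM against 3.74, 3.44 and 3.41 FPKM. Its groups were also apart, as were those of 3.77% of genes tested in that direction. Its log2 fold change was 0.32 (limits -0.062 to 0.71).

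The molybdenum enzymes differed in how steady they were. AOX1 stood at 14.5, 22.2 and 4.27 FPKM with miR-204-5p and 16.3, 15.7 and 3.99 FPKM with miR-NC. Replicate 3 was low in both groups, and the remaining 4 libraries lay between 14.5 and 22.2 FPKM. Means were 13.6 ± 9.0 and 12.0 ± 6.93 FPKM (SD, n = 3 each). The log2 fold change was 0.13 (standard error 0.67, limits -1.47 to 1.73). Its sign depended on single libraries, being -0.46 when miR-NC replicate 3 was left out and 0.75 when miR-204-5p replicate 3 was. Leaving out miR-204-5p replicates 1 or 2 gave -0.029 and -0.32. Without both libraries numbered 3, an alternative chosen after seeing the data, it was 0.16.

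XDH stood at 0.85, 1.14 and 0.98 FPKM with miR-204-5p and 1.18, 1.25 and 0.88 FPKM with miR-NC. Its highest library was 1.47 times its lowest, against 5.57 times for AOX1. The longest transcripts have 5688 bases for XDH and 5074 for AOX1, and the part of length was not tested. The log2 fold change of XDH was -0.080 (standard error 0.15, limits -0.42 to 0.26). It was -0.14 with a pseudocount of 0.1, and over left-out libraries it ran from -0.16 (miR-NC replicate 3) to -0.029 (miR-204-5p replicate 1). AOX1 exceeded XDH by 12.6 to 19.5 times in the 4 libraries numbered 1 and 2, and by 4.38 and 4.53 times in those numbered 3.

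Since AOX1 and CYBA had the widest ranges of log2(FPKM + 1) among the tested members (2.22 and 1.22), genes with the most similar profile over the 6 libraries were looked up for each. The measure was the root mean square difference of centred log2(FPKM + 1) values. Nearest to AOX1 were ARHGEF10 (0.087), AMOTL1 (0.14) and RUBCN (0.17), with longest transcripts of 5648, 8970 and 6955 bases. RUBCN stood at 2.08 to 2.68 FPKM in the libraries numbered 1 and 2 and at 0.079 and 0.075 FPKM in those numbered 3. Nearest to CYBA were KRTCAP2 (0.042), HSPB1 (0.044) and EIF4EBP1 (0.048), with longest transcripts of 3264, 1455 and 1020 bases. HSPB1 stood at 383, 215 and 485 FPKM with miR-204-5p and 214, 209 and 452 FPKM with miR-NC. The groups overlapped in each of the 6 profiles.

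**Figure D3:**
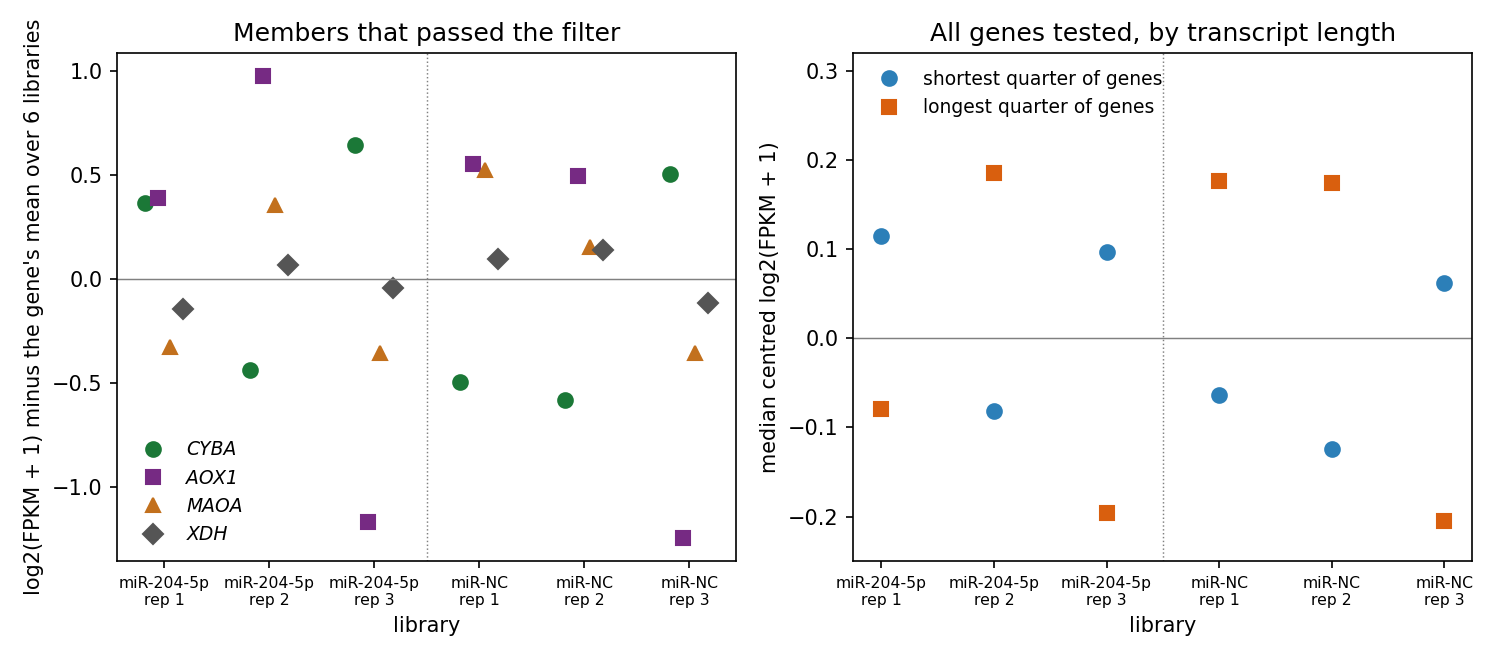
Left, log2(FPKM + 1) of the 4 tested oxidase genes in each library, centred on the gene's mean; right, the median of the same centred value over the 3268 genes with the shortest and the 3270 with the longest transcripts. CYBA is high and MAOA low in replicates 1 and 3 of miR-204-5p and replicate 3 of miR-NC, the 3 libraries where the median of long transcripts lies below 0; AOX1 is low in the libraries numbered 3, and XDH stays near 0.

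Of 15 genes of the molybdenum cofactor and of purine breakdown, 13 passed the filter and 0 were called. Among the 13, 7 were positive (9 after quantile normalization) and the median was 0.040. NT5E, the ectoenzyme CD73 that makes adenosine, averaged 197 ± 62.9 FPKM with miR-204-5p and 217 ± 50.5 FPKM with miR-NC. The salvage enzymes APRT and HPRT1 averaged 93.4 ± 29.1 against 65.6 ± 20.0 FPKM and 32.3 ± 1.84 against 29.6 ± 2.15 FPKM (SD, n = 3 each). PNP, which supplies hypoxanthine and guanine, stood at 28.8, 24.0 and 24.0 FPKM against 23.2, 16.8 and 22.7 FPKM, without overlap. Its log2 fold change was 0.29 (limits -0.15 to 0.73), and 0.15 when miR-NC replicate 2 was left out. ADA, adenosine deaminase, stood at 1.21, 1.45 and 1.54 FPKM against 1.19, 1.07 and 1.18 FPKM. Its groups were also apart, narrowly, and its log2 fold change was 0.16 (limits -0.17 to 0.49). PNP and ADA were named for having groups apart, and a rise without overlap was seen in 3.77% of all genes tested.

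Both cyclooxygenases were at or near 0, below 0.1 FPKM in every library. PTGS1, the constitutive form, stood at 0.020, 0.041 and 0.024 FPKM with miR-204-5p and 0.050, 0.070 and 0.0083 FPKM with miR-NC, roughly 0.87 to 8.25 read pairs a library. The groups overlapped, and the difference of mean log2(FPKM + 1) was -0.020 (exact permutation test, two-sided, p = 0.6). PTGS2, the inducible form, was listed at 0 in all 3 miR-204-5p libraries and 2 miR-NC libraries, and at 0.016 FPKM in miR-NC replicate 2, which is roughly 1.71 read pairs. No fold change is given for it. PTGS1 holds a sense-intronic gene and CYBB overlaps another gene on its strand, so the reads of these low genes may also be shared.

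Of 19 other genes of the prostaglandin pathway 9 passed the filter and 0 were called, with 3 positive (4 after either scaling) and a median of -0.022. Enzymes that act after the cyclooxygenase step were present. PTGES3, a prostaglandin E synthase better known as the HSP90 co-chaperone p23, stood at 50.8, 28.4 and 54.2 FPKM with miR-204-5p and 28.6, 53.0 and 14.6 FPKM with miR-NC. Its log2 fold change of 0.58 (limits -0.53 to 1.70) was 0.13 when miR-NC replicate 3 was left out and 1.03 when miR-NC replicate 2 was. It was -0.037 without both libraries numbered 3. PTGES, the inducible microsomal prostaglandin E synthase, averaged 24.7 ± 1.22 and 25.0 ± 4.20 FPKM, and its log2 fold change was -0.0066 (limits -0.41 to 0.40). PTGR1, a prostaglandin reductase, averaged 22.4 ± 2.57 and 28.6 ± 4.97 FPKM (SD, n = 3 each), and its log2 fold change was -0.33 (limits -0.77 to 0.12).

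**Figure D4:**
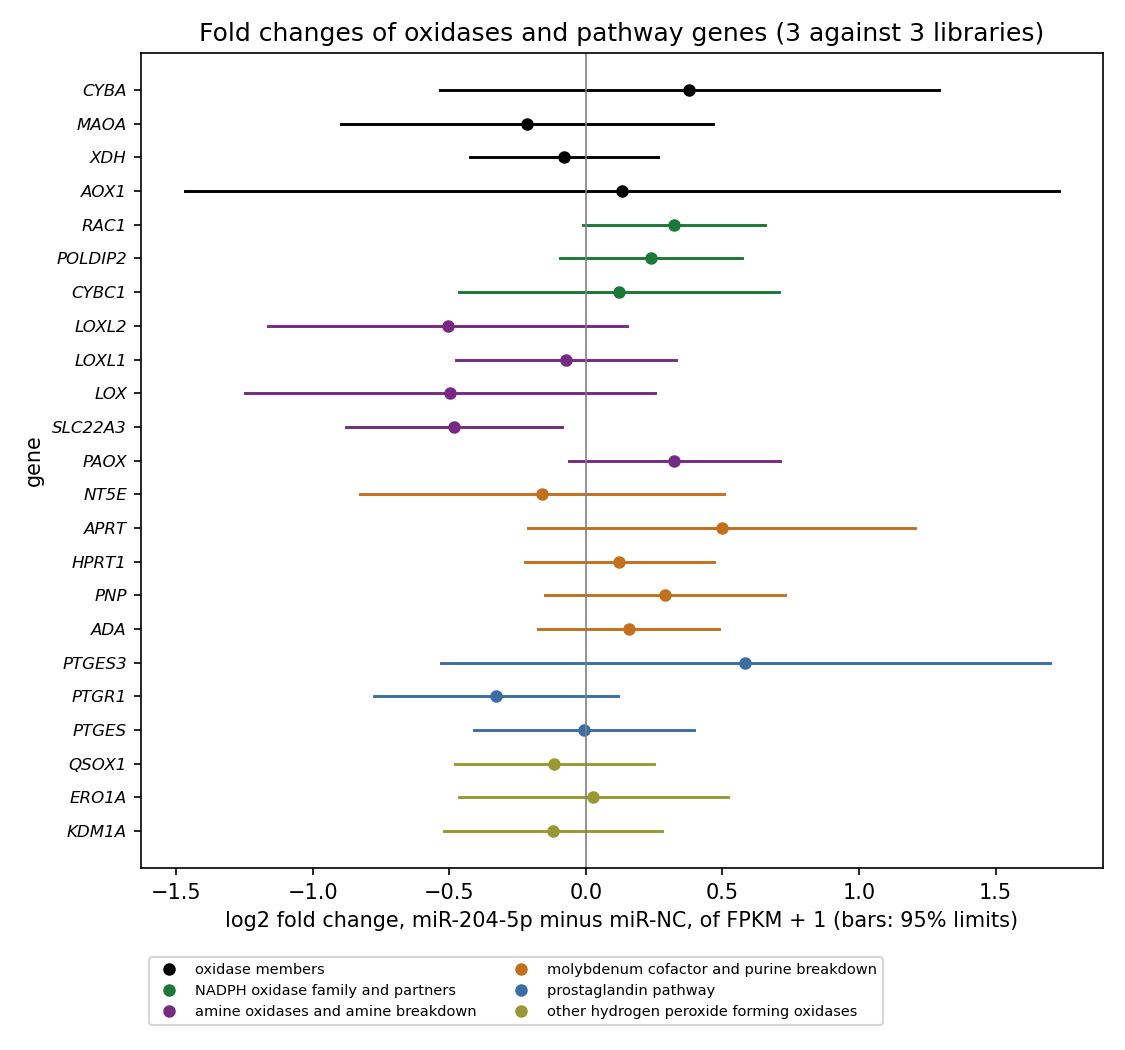
Log2 fold changes of FPKM + 1, miR-204-5p minus miR-NC, with 95% limits from the limma fit (3 against 3 libraries), for the 4 oxidase genes tested and the 19 named pathway genes. The limits include 0 for each gene but SLC22A3 (-0.88 to -0.087), and those of AOX1, from -1.47 to 1.73, are the widest.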

How the data were processed

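RNA of 6 ARPE-19 libraries, 3 a group by their titles, had been poly(A) selected and made into dUTP strand-marked libraries read as paired ends of 150 bases, per the labels' protocols. The authors deposited 1 FPKM column per library, with 0.0001 in place of 0. The submitters' processing notes name StringTie 1.3.4d, HISAT2 2.0.4 and cutadapt 1.9, as well as DESeq2 and edgeR, on GRCh38, with no role or order. Neither the annotation release nor the strand setting is stated. Besides FPKM, the authors deposited for each gene a fold ratio with its log2, and a p-value with its q-value.

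Values of 0.0001 or less were read as 0. The 13151 of 60612 genes that reached 0.5 FPKM in 3 or more libraries were fitted on log2(FPKM + 1) in R 4.3.3 by limma 3.58.1 (trended variance, no covariates, two-sided) and adjusted by Benjamini-Hochberg over all of them at 0.05. Fold changes on this scale understate those of low genes. Because FPKM is relative, an RNA abundant in 1 library lowers all others there. Members below the filter were compared by exact permutation of libraries. Read pairs are rough estimates, from the commonest product of FPKM and length in single-transcript genes. The fit was tested on simulated data. The submitters describe the replicates as biological.

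Members, lists and tests were chosen with earlier results of these data known. Named were all 10 members, the 3 highest genes of each of 5 lists, up to 2 genes a list whose groups did not overlap, and the 3 nearest profiles of 2 members. Lengths and 3' UTRs are from GENCODE release 29, and 99.4% of genes tested had a length. Python 3.11.15 was used for these.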

Additional observations from a re-analysis of the deposited data

How the results depend on the processing

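In none of the alternatives run was an oxidase gene of this set called (0 in each). Calls over all genes stayed at 0 except without miR-204-5p replicate 2, where there were 3 (0 to 3 over left-out libraries); the cause was not tested. By unadjusted p under 0.05 (limma) there were 273 genes, then 725 without a filter, where more genes were tested. Over left-out libraries this was 163 (miR-204-5p replicate 1 left out) to 753 (miR-204-5p replicate 2 left out), with 165 and 601 when miR-NC replicate 2 or 3 was left out. With the replicate number as a block they numbered 941 of the 13151 genes tested, with 0 genes called. Among the named genes these included LOXL2, APRT, SLC22A3, LOX, PTGR1, RAC1 and PAOX (limma with the block, unadjusted p from 0.0080 to 0.043, adjusted p 0.66). SLC22A3 and PAOX had been named because their groups did not overlap in these same data, and RAC1 in part for that. Their small unadjusted p is therefore no separate support. CYBA had an unadjusted p of 0.098 in the same fit (limma with the block). Between the groups, deviations from the group mean had correlations of 0.042 (replicates 1), 0.55 (replicates 2) and 0.52 (replicates 3). Between unlike numbers they were 0.32, 0.16, -0.25, -0.37, -0.38 and -0.61, where 0.16 is miR-204-5p replicate 1 with miR-NC replicate 3. The labels do not say that equal numbers mark pairs, so the block was kept as an alternative. Whether the replicates were paired was not tested.

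Of 330 values of 29 single genes under alternatives, 23 turned direction, 9 of them in oxidase members, and 0 were called. Among these values, those of members below the filter had no adjusted p and so could not be called. Over left-out libraries the log2 fold change ran from -0.46 to 0.75 for AOX1, -0.40 to 0.024 for NT5E, -0.076 to 0.12 for PTGES, -0.10 to 0.17 for ERO1A, -0.032 to 0.32 for CYBC1 and -0.14 to 0.048 for LOXL1. The difference of mean log2 values ran from -0.028 to 0.094 for NOX4, -0.028 to 0.043 for CYBB and -0.26 to 0.037 for MAOB. A pseudocount of 0.1 in place of 1 gave -0.43 for MAOA, -0.14 for XDH and 0.26 for ADA. Leaving out 1 library gave 0.27 to 0.73 for APRT, 0.073 to 0.17 for HPRT1 and -0.20 to -0.029 for KDM1A. PTGES was 0.0098 with median-of-ratios scaling. Without both libraries numbered 3, chosen after seeing the data, PTGES3 was -0.037, PTGES 0.10, ERO1A -0.038 and NOX4 -0.0071. The cause was not tested. Count tests were not run, since the values are FPKM, and members below the filter were not refitted with quantile normalization or the block. At this depth the 4 lowest members rest on few reads.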

Other observations

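Among 16 other oxidases that form hydrogen peroxide, the 3 highest were QSOX1, ERO1A and KDM1A, while HAO1, HAO2, DAO, IL4I1 and PIPOX averaged at most 0.010 FPKM. QSOX1, a secreted sulfhydryl oxidase that forms disulfide bonds, stood at 118, 117 and 119 FPKM with miR-204-5p and 119, 121 and 145 FPKM with miR-NC. The values lay close together except in miR-NC replicate 3, and the log2 fold change was -0.11 (95% limits -0.48 to 0.25), or -0.023 when miR-NC replicate 3 was left out. ERO1A, the oxidase that recharges protein disulfide isomerase in the endoplasmic reticulum, averaged 18.8 ± 3.55 and 18.4 ± 3.48 FPKM (SD, n = 3 each). KDM1A, a flavin-dependent histone demethylase, averaged 14.9 ± 1.85 and 16.3 ± 1.71 FPKM (SD, n = 3 each). Of the 16 genes 11 passed the filter and 0 were called, with 6 positive (7 after quantile normalization). The median log2 fold change was 0.0021, against -0.016 for all genes tested.

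Endothelial, fibroblast and photoreceptor markers were also read. None of 6 endothelial markers reached 0.5 FPKM in 3 libraries, while 2 of 8 fibroblast markers did. LUM, DCN and COL1A2, genes of fibroblast matrix, stood at 0.50, 0.16 and 0.95 FPKM in miR-204-5p replicate 3 and at most at 0.036, 0.017 and 0.0044 FPKM in any other library. In the same library COL1A1, COL3A1 and PDGFRA were also at their highest, but PDGFRB was at its lowest, 0.99 FPKM against 1.32 to 3.17 FPKM, and THY1, at 0.29 FPKM, lay below miR-204-5p replicate 2. That is the replicate in which RN7SK was high. Of 9 photoreceptor and neuron markers TUBB3 alone reached 0.5 FPKM in 3 libraries. It stood at 48.5 to 51.5 FPKM with miR-204-5p and 11.7, 40.9 and 39.0 FPKM with miR-NC, without overlap. The same was seen in this direction in 3.77% of all genes tested, and 0 of the 13151 genes tested were called.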
